A study of Mus musculus with 6 samples.

Results

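Described are 10 genes that act in MHC class II presentation: the invariant chain gene Cd74, the class II chain genes H2-Aa, H2-Ab1, H2-Eb1 and H2-Ea, the peptide editor genes H2-DMa, H2-DMb1, H2-DMb2 and H2-Ob, and the coactivator gene Ciita. They were chosen by name, and every probe that the platform annotation assigns to these symbols was taken, which gave 17 of the 45281 probes of the array. All 10 genes had at least 1 probe, and 9 probes of 6 genes passed the filter on dim probes. The study compared cells of Wehi-231, a B lymphoma line from a (BALB/c x NZB)F1 mouse grown in DMEM with serum, that carried a short hairpin RNA labelled shCT or shTFII-I. TFII-I is the transcription factor encoded by Gtf2i, and the series as a whole deals with TFII-I and the binding of CTCF at promoters. RNA of 3 samples in each group was hybridised to Illumina bead arrays. The labels give neither the hairpin sequences nor the vector, nor do they tell if the replicates came from separate cultures. The p-values therefore cover only the spread among these samples, part or all of which may be technical. All cells come from a single tumour line.

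MHC class II molecules present peptides from endosomes to CD4+ T cells, and B cells, dendritic cells and macrophages are the cells best known for them. An alpha and a beta chain pair in the endoplasmic reticulum, where the invariant chain fills the groove and steers the complex to endosomes. There the DM molecule removes the last piece of the invariant chain and lets peptides bind, and DO restrains DM. Class II promoters share a module of X and Y boxes, bound by RFX, CREB and NF-Y factors, on which the CIITA protein docks without binding DNA itself. CTCF is known from human cells to take part in the control of the class II region.

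Promoter letters are shown for the 4 genes in which both boxes were found, as the module described above. RefSeq promoter windows (assembly GRCm38.p6, 250 bases before to 50 after the start site) were matched for 6 of the 10 genes: H2-Aa, H2-Eb1, H2-DMa, H2-DMb1, H2-DMb2 and H2-Ob. These are windows of the reference strain, not of Wehi-231 cells. The Y box letters GATTGG, searched on both strands, were in a window of each of the 6 genes and in 16.1% of all 32851 windows. The X box letters CCTNGNNAC lay 10 to 40 bases before a Y box on the same strand in H2-DMb1 and H2-Ob, and in 0.210% of all windows. With the shorter letters CTNGNNAC, which overlap the longer ones and were chosen after the promoters were read, H2-Aa and H2-Eb1 matched too, and 0.551% of all windows. Without regard to a Y box, the longer X box letters were in 15.8% of all windows and the shorter ones in 41.4%. H2-DMa and H2-DMb2 had no X box match with either. In the stretches below, read 5′ to 3′ on the strand of the gene, capitals mark the shorter X box and then the Y box.
H2-Aa: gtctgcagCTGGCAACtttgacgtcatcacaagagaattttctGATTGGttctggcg
H2-Eb1: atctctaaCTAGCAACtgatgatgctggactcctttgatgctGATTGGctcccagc
H2-DMb1: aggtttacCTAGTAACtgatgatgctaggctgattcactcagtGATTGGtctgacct
H2-Ob: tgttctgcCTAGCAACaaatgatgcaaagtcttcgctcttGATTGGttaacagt
They lie at chr17:34287859-34287915 (minus strand), chr17:34305765-34305820, chr17:34153086-34153142 and chr17:34238807-34238860 (plus strand), each upstream of its gene. Between the boxes there are 27, 26, 27 and 24 bases, and the Y box begins 49, 60, 62 and 58 bases before the start site. The letters CCAGNNGGC, the core of the CTCF motif, were in 0 of the 7 windows of the 6 genes and in 8.81% of all windows. Matches and missing matches describe these letters in these windows.

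Values are the deposited log2 intensities, which still hold background, so that differences of dim probes come out too small. The background level was estimated at 6.61 from the lower side of the distribution of all values. A probe was tested where 3 or more arrays exceeded that level, as was so for 12116 probes. The number of arrays limits the precision, and 95% intervals of log2 differences had a median half-width of 0.38. The filter was passed by 6 of the 7 B cell markers with a probe. Cd79b, a chain of the B cell receptor complex, was far above background on all 6 arrays. Pax5 passed but lay close to the background level, with a range of 6.51 to 6.70. Ms4a1 did not pass and exceeded that level in 1 array of each group, with a range of 6.50 to 6.76. Of T cell markers 0 of 7 with a probe passed, of dendritic cell markers 0 of 8 and of macrophage markers 2 of 7, with Csf1r and Tyrobp close to the background level. Of plasma cell markers 3 of 6 passed, and these were bright. The only named probe of Gtf2i was below background on all 6 arrays (6.40 to 6.56), so the knockdown was not checked by it. No array was dropped, and in bulk RNA more cells that express a gene and more RNA per cell cannot be told apart.

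The pair of genes that encodes the class II molecule I-E was above background only in shTFII-I cells, by a small margin. H2-Eb1, the beta chain, had log2 intensities of 6.47, 6.54 and 6.38 in shCT and 6.80, 6.79 and 6.85 in shTFII-I. H2-Ea, the alpha chain, had 6.54, 6.53 and 6.51 in shCT and 6.97, 6.84 and 6.85 in shTFII-I. For each of these genes all 3 shTFII-I arrays lay above the background level and above all 3 shCT arrays, and no shCT array reached that level. H2-Ea is a pseudogene in the reference strain but is functional in the d haplotype that BALB/c and NZB mice carry.

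The mean of H2-Eb1 was 6.46 ± 0.08 in shCT and 6.81 ± 0.03 in shTFII-I (SD, n = 3 each), a log2 difference of 0.35 with a 95% interval from 0.10 to 0.60. For H2-Ea the means were 6.52 ± 0.02 and 6.89 ± 0.07 (SD, n = 3 each), a difference of 0.36 with an interval from 0.12 to 0.61. All differences given are on the log2 scale and have shCT subtracted from shTFII-I. The shCT arrays give only an upper limit. With the background level standing for the shCT mean, the shTFII-I mean was 1.15-fold higher for H2-Eb1 and 1.21-fold higher for H2-Ea. These folds make no allowance for the spread between arrays and are not lower limits. Neither passed limma's test over all probes tested (adjusted p = 0.636 for each). Their unadjusted p of 0.0134 and 0.0105 has to be read with the filter, which they passed through the shTFII-I arrays alone. Normexp background correction gave 1.93-fold and 1.87-fold, from shCT values that lie below background, and the adjusted p in limma was then 0.474 for each. With any 1 array left out the difference stayed between 0.31 and 0.39 for H2-Eb1 and between 0.32 and 0.39 for H2-Ea. Since the groups do not overlap, leaving out 1 array cannot reverse the sign, and nothing is read from these ranges.

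**Figure D1:**
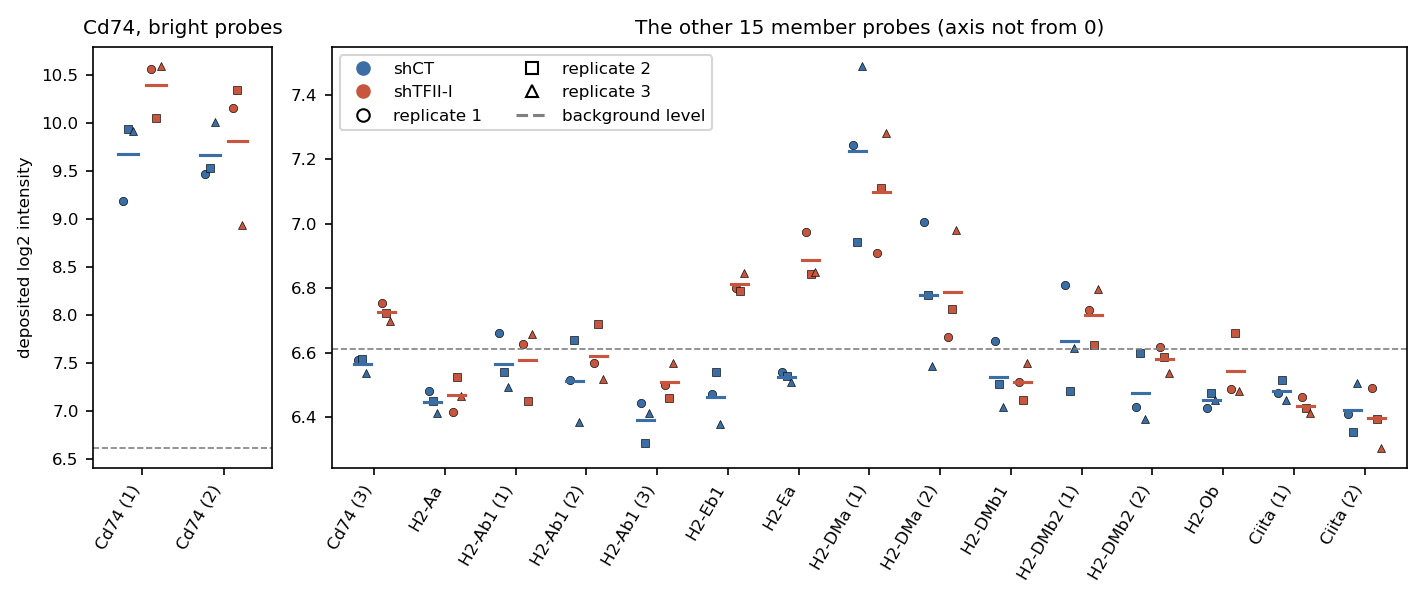
Deposited log2 intensity of each of the 17 probes on the 6 arrays, with a horizontal bar at each group mean and the dashed line at the background level of 6.61. H2-Eb1, H2-Ea and the dim Cd74 probe are above the line in shTFII-I arrays alone, and numbers in brackets count the probes of a gene from the brightest.

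The genes of the other class II molecule, I-A, were at or below background in both groups. H2-Aa, its alpha chain, ran from 6.41 to 6.53 over the 6 arrays, with no array above background. Of the 3 probes of H2-Ab1, the beta chain, ILMN_2913716 alone passed the filter, with 1 shCT and 2 shTFII-I arrays above background. It read 6.66, 6.54 and 6.49 in shCT and 6.63, 6.45 and 6.66 in shTFII-I. The groups overlapped, and the difference was 0.01 with an interval from -0.26 to 0.29 (limma adjusted p = 0.993). ILMN_2631423 exceeded background in 1 array of each group (6.38 to 6.69), and ILMN_1226525 in none (6.32 to 6.57). The I-A chains therefore had no level here that could be set beside that of I-E. The class II chains are highly polymorphic genes, and whether the probes match the alleles of this line was not tested.

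Cd74, the invariant chain, was far above background on 2 of its 3 probes, and these did not give the same picture. ILMN_1221817 had log2 intensities of 9.18, 9.94 and 9.91 in shCT and 10.56, 10.05 and 10.59 in shTFII-I. All shTFII-I arrays were above all shCT arrays, though the lowest shTFII-I array and the highest shCT array were close. The means were 9.68 ± 0.43 and 10.40 ± 0.30 (SD, n = 3 each), 1.65-fold apart. The log2 difference was 0.72 with an interval from 0.13 to 1.31, and it did not pass limma's test (unadjusted p = 0.0241, adjusted p = 0.715). Without shCT replicate 1, the lowest array, the difference was 0.47, and without shTFII-I replicate 2 it was 0.89.

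ILMN_3089584 read 9.46, 9.53 and 10.01 in shCT and 10.15, 10.34 and 8.93 in shTFII-I. The third shTFII-I array was thus the lowest of all on this probe and the highest of all on ILMN_1221817. The difference was 0.14 with an interval from -0.74 to 1.02 (limma adjusted p = 0.982). It was 0.58 without the third shTFII-I array, but -0.12 without the second and -0.03 without the first. The platform annotation ties these probes to different RefSeq transcripts of Cd74. The dim probe, ILMN_1247832, is tied to the same transcript as ILMN_1221817. It read 6.58, 6.58 and 6.54 in shCT, all below background, and 6.75, 6.72 and 6.70 in shTFII-I, all above it. Its shTFII-I mean was 1.08-fold the background level. The log2 difference was 0.16 with an interval from -0.08 to 0.40 (limma adjusted p = 0.868). This probe passed the filter through the shTFII-I arrays alone. The mean of the 3 Cd74 probes differed by 0.34, with an interval from -0.04 to 0.72 (limma adjusted p = 0.752).

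**Figure D2:**
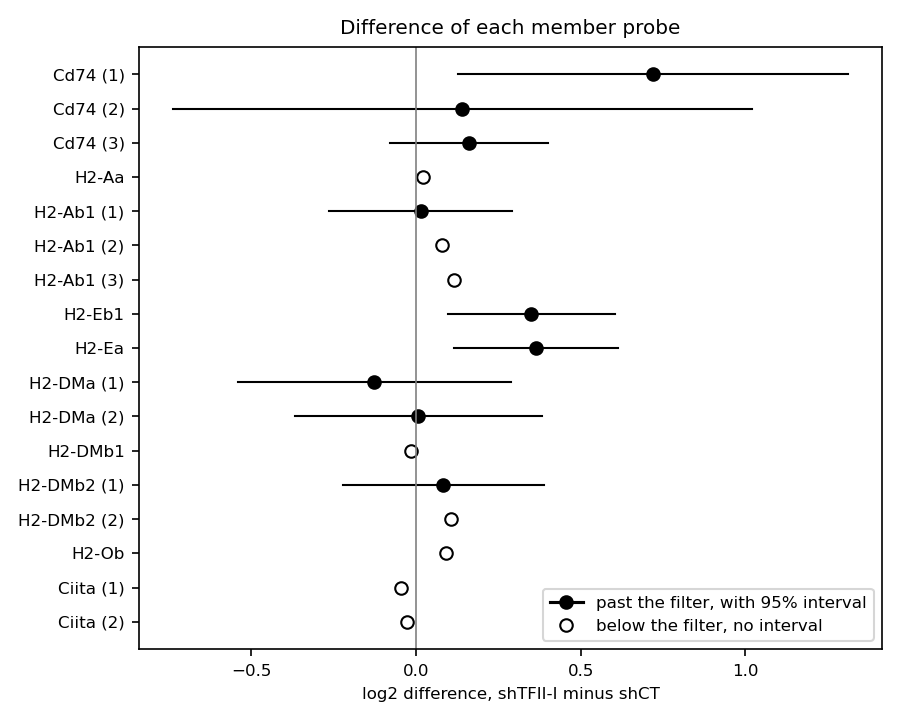
Log2 difference, shTFII-I minus shCT, of each of the 17 probes, with 95% intervals from limma for the 9 probes past the filter and open points for the other 8. The intervals of H2-Eb1, H2-Ea and the brightest Cd74 probe lie above 0, that of the second Cd74 probe runs from -0.74 to 1.02, and 0 of the 9 passed after adjustment. H2-Eb1, H2-Ea and the dim Cd74 probe passed the filter through the shTFII-I arrays alone, so their intervals have to be read with it.

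By a rule of likeness, the genes whose 6 values followed ILMN_1221817 most closely were Wdr6, Mthfd1 and Ube2v1. Their values, centred per probe, were apart from those of Cd74 by a root mean square of 0.151, 0.152 and 0.163, where the Cd74 probe itself spread by 0.471 about its mean. They differed between the groups by 0.67, 0.51 and 0.44, and like Cd74 did not pass limma's test (adjusted p = 0.717, 0.816 and 0.828). None of the 3 is a gene of class II presentation. With 6 arrays and 12116 probes, such likeness is a description of these arrays.

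The peptide editors were dim, and their tested probes differed between the groups by less than the spread between arrays. H2-DMa, the alpha chain of DM, was above background on all 6 arrays with ILMN_2866856, which read 7.24, 6.94 and 7.49 in shCT and 6.91, 7.11 and 7.28 in shTFII-I. The groups overlapped, and the difference was -0.13 with an interval from -0.54 to 0.29 (limma adjusted p = 0.975). Its second probe, ILMN_2777769, ran from 6.56 to 7.00 and differed by 0.0072, with an interval from -0.37 to 0.38. The SDs of these probes within groups ran from 0.17 to 0.27 (n = 3 each), more than the groups differed in the mean. The intervals leave room for a fall of up to 0.54 or a gain of up to 0.38.

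H2-DMb1 and H2-DMb2 encode closely related beta chains of DM, and cross-hybridisation of their probes was not tested. H2-DMb2 was tested with ILMN_2589164, which read 6.81, 6.48 and 6.62 in shCT and 6.73, 6.62 and 6.80 in shTFII-I, with 5 of 6 arrays above background. The groups overlapped, and the difference was 0.08 with an interval from -0.22 to 0.39 (limma adjusted p = 0.976). Its second probe exceeded background in 1 array and the only H2-DMb1 probe also in 1, with ranges of 6.39 to 6.62 and 6.43 to 6.64. H2-Ob, the beta chain of DO, ran from 6.43 to 6.66 and exceeded background in the second shTFII-I array alone. H2-Oa, the alpha chain of DO and not among the 10 genes, read 7.09, 6.81 and 6.96 in shCT and 6.63, 6.63 and 6.80 in shTFII-I with its brighter probe. The difference was -0.27, with all shTFII-I arrays lower (limma adjusted p = 0.784), and the second H2-Oa probe differed by -0.10. The first and second shTFII-I arrays of the brighter probe were close to the background level.

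Ciita, the coactivator on which the class II promoters depend, was not measurable. Its probes ran from 6.41 to 6.52 and from 6.30 to 6.50, and no array of either group exceeded the background level with either probe. No change in Ciita could therefore be set beside the values of H2-Eb1 and H2-Ea.

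Over all 17 probes, without the filter, 13 were higher in the mean in shTFII-I and 4 lower, and the median log2 difference was 0.08, beside 50% higher and a median of 0.000085 over all 45281 probes. The 13 include probes below the filter, such as those of H2-Aa and H2-Ob, and several probes of the same gene. No shift of the 10 genes as a set is read from them. The groups did not overlap with shTFII-I higher in 6 of the 17, where 5.21% of all probes did, and with shTFII-I lower in 0 of the 17, where 5.13% of all probes did. The 6 were H2-Eb1, H2-Ea, ILMN_1221817 and ILMN_1247832 of Cd74, ILMN_1226525 of H2-Ab1 and H2-Ob, of which H2-Ab1 had no array and H2-Ob 1 array above background. Probes of a gene share its RNA, so these 6 come from 5 genes. A change from 0 shCT to 3 shTFII-I arrays above background occurred in 3 of the 17 probes and in 50 of all probes, or 0.11%. The opposite change occurred in 0 of the 17 and in 56 of all probes, or 0.124%. The 3 were H2-Eb1, H2-Ea and ILMN_1247832. This count was not among the planned results, and nothing is read from it. After adjustment in limma 0 of the 9 tested probes passed, and 0% of all 12116, with 6.51% of these at an unadjusted p under 0.05. Groups did not overlap in 4 of the 9 tested probes and in 11.4% of all tested, but 3 of these 4 (H2-Eb1, H2-Ea and ILMN_1247832) passed the filter through the shTFII-I arrays alone, so nothing is read from that count. Over single arrays the median deviation of the 17 probes from their own means was -0.01, -0.05 and -0.08 in shCT and 0.06, 0.0085 and 0.05 in shTFII-I. The third shCT array held the lowest value of 8 of the 17 probes.

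Of the 6 tested B cell markers 0 passed after adjustment in limma, and 4 were higher in the mean, beside 50.1% of all genes. Their median log2 difference was 0.07, with Pax5 at 0.06, Ebf1 at -0.06, Cd22 at -0.0068, Blnk at 0.08 and Cd72 at 0.18 on their brightest probes. The log2 of the mean linear signal of the list, in which bright probes weigh most, ran from 8.39 to 8.89 in shCT and from 9.05 to 9.36 in shTFII-I, without overlap. Its brightest marker, Cd79b, differed by 0.74 with overlapping groups on its brighter probe (limma adjusted p = 0.860) and by 0.83 without overlap on the other (adjusted p = 0.518). Dendritic cell markers ran from 6.45 to 6.49 in shCT and from 6.46 to 6.49 in shTFII-I, with 7 of 8 in no array above background, among them Itgax, Flt3 and Clec9a. Macrophage markers ran from 6.46 to 6.476 in shCT and from 6.480 to 6.53 in shTFII-I, also without overlap but below the background level. Cd14, Itgam, Adgre1 and Fcer1g exceeded that level in no array. T cell markers ran from 6.46 to 6.50 and from 6.43 to 6.46, and fibroblast markers from 6.46 to 6.47 and from 6.46 to 6.50. Plasma cell markers ran from 9.49 to 9.52 and from 8.74 to 9.69, with Sdc1, Prdm1 and Jchain in no array above background. The part of B cell marker level in the class II values was not tested.

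**Figure D3:**
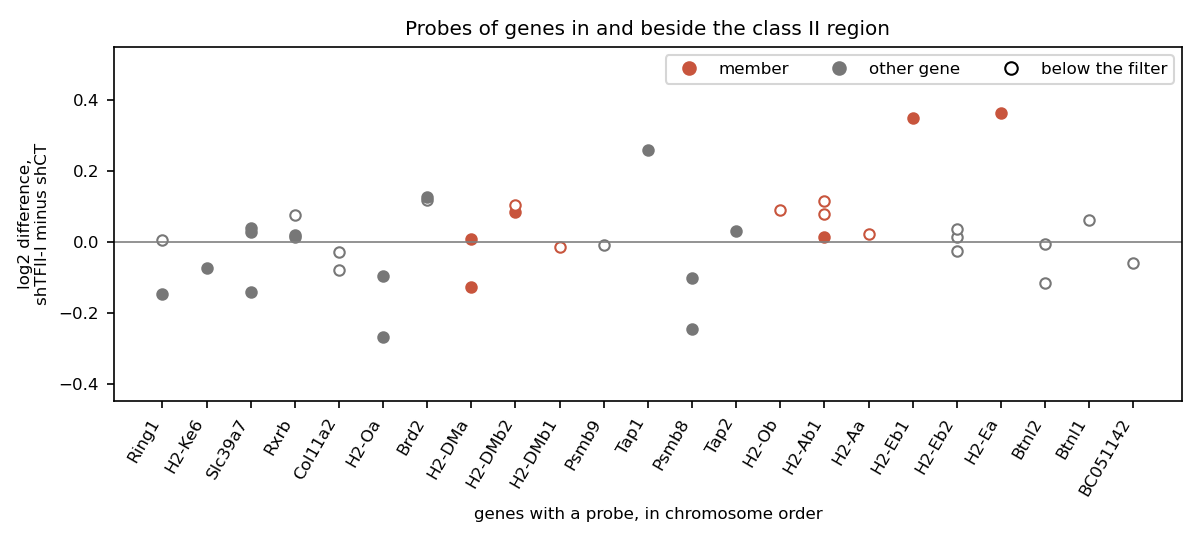
Log2 difference, shTFII-I minus shCT, of each probe of the genes in and beside the class II region, in chromosome order with even spacing. H2-Eb1 and H2-Ea are the highest points, at 0.35 and 0.36, and the 3 probes of H2-Eb2 between them are below the filter.

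H2-Eb1 and H2-Ea lie close together on chromosome 17, and the tested genes around them had differences on both sides of 0. H2-Eb2, a further beta chain gene between them, was below background on all arrays with each of its 3 probes (6.25 to 6.59). H2-Ab1 and H2-Aa on the near side were at or below background, as were both probes of Btnl2 on the far side apart from 1 array. Of 28 other genes in the region and up to 10 on each side, 15 had a probe and 9 were tested, with 5 higher and 4 lower in the mean and a median of 0.02. Tap1, a subunit of the peptide transporter of class I presentation, had the smallest p of these. Its difference was 0.26, with all shTFII-I arrays higher (limma adjusted p = 0.776) and a shCT mean of 6.66, close to background. Its neighbour Psmb8, an immunoproteasome subunit, differed by -0.10 and -0.25 on its probes, and Tap2 by 0.03. Class I heavy chain genes outside that stretch went no single way, with H2-K1 at 0.09 and H2-D1 at -0.37 on their brightest probes (adjusted p = 0.976 and 0.900 in limma). The other tested probes of H2-D1 disagreed in sign, at 0.36 and 0.07, and that of H2-K1 was at -0.02.

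Of the factors that bind the class II promoters, none of those measured passed the test. Rfx5, the DNA-binding subunit of RFX, was below the filter on its 2 probes (6.41 to 6.78). Its partners Rfxap and Rfxank differed by 0.17 ± 0.19 and -0.04 ± 0.13 (log2 difference and SE), and the NF-Y subunits Nfya, Nfyb and Nfyc by 0.11 ± 0.13, -0.07 ± 0.24 and -0.26 ± 0.30. Ctcf differed by 0.07 ± 0.25. The whole list of 21 factors and cofactors had 17 tested genes, 10 higher and 7 lower in the mean, and 0 passed after adjustment. Its smallest p values belonged to the acetyltransferase Ep300 (0.61 ± 0.25), the B cell and myeloid factor Irf8 (0.28 ± 0.13), Zbtb32 (-0.51 ± 0.26, and -0.05 on its second probe), known to repress Ciita, and Creb1 (-0.13 ± 0.12). Ep300 was the only gene of the list with an unadjusted p under 0.05, where 7.31% of all 7205 genes had one. On the interferon gamma route to Ciita, 7 of 10 genes were tested, 5 higher and 2 lower, with Irf1 at 0.42 ± 0.28 and Jak2 at 0.31 ± 0.30. The 4 tested probes of Irf1 disagreed in sign, the lowest at -0.09.

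The endosomal machinery went both ways. Among 10 tested genes of proteases and processing 6 were higher and 4 lower, with a median of 0.08 beside 0.00037 over all genes. Ifi30, the thiol reductase of antigen processing, differed by 0.62 ± 0.26, with 0.07 on its second probe. Ctsb, a cathepsin, differed by -0.64 ± 0.26, and the lysosomal membrane protein Lamp1 by -0.36 ± 0.18. Ctss, the protease that trims the invariant chain in B cells, was near background and differed by 0.10 ± 0.12.

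Among genes of class II traffic and the tetraspanins that surround class II at the membrane, 5 were higher and 7 lower of 12 tested, with a median of -0.0074. Cd81 read 10.17, 10.19 and 9.80 in shCT and 9.36, 9.46 and 9.35 in shTFII-I. All shTFII-I arrays were below all shCT arrays, with a difference of -0.66 ± 0.14 and a limma adjusted p of 0.476. Cd9 differed by -0.41 ± 0.12 in the same direction (adjusted p = 0.636 in limma), and Cd37 by 0.32 ± 0.17. Rab7, the GTPase of late endosomes, differed by -0.68 ± 0.30 on its brightest probe, while its 3 tested probes reached up to 0.14. Marchf1 and Marchf8, ubiquitin ligases that remove class II from the surface, were below background on all arrays.

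**Figure D4:**
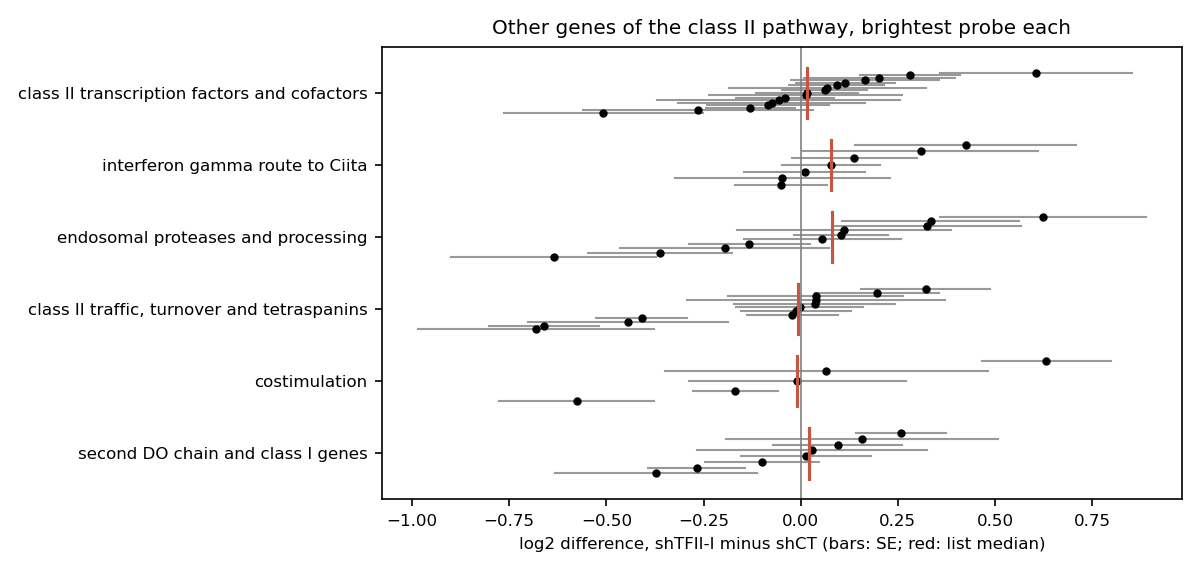
Log2 difference, shTFII-I minus shCT, of each tested gene of 6 lists around the class II pathway, 1 probe a gene, with bars for the SE and a red line at the median of each list. The medians lie between -0.0088 and 0.08, and the genes of each list fall on both sides of 0.

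Of the costimulatory genes, which act beside class II at the contact with T cells, 5 of 10 were tested. Cd70 read 6.42, 6.72 and 6.80 in shCT and 7.03, 7.47 and 7.33 in shTFII-I. The groups did not overlap, and the difference was 0.63 ± 0.17 (limma adjusted p = 0.587). The first shCT array of Cd70 was below background. Cd83, which protects class II from removal by Marchf1, differed by -0.58 ± 0.20, with all shTFII-I arrays lower (limma adjusted p = 0.715). Its shTFII-I mean of 6.64 was close to the background level. Cd274 differed by -0.17 ± 0.11 and Cd40 by 0.07 ± 0.42, with its 4 tested probes as low as -0.37. Cd80 and Cd86 were below background on all arrays. In the 6 lists together 0 genes passed after adjustment in limma, where 0% of all genes did.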

How the data were processed

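The authors deposited log2 intensities for 6 arrays of 3 shCT and 3 shTFII-I samples. From the values these had been quantile normalized, with sorted values at most 0.0012 apart, and show no sign of background subtraction. The tool limma is named in the submitters' processing notes, without a role. No other step was given in the sources used here. A further table was not used, since the headings of its 12 columns of per-sample values match no sample.

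Genes were named by platform annotation (34885 probes with 1 symbol, 18 with several, 10378 with none), and 34807 were updated by Entrez ID to RefSeq symbols (GRCm38.p6). The background level was set so that 1% of the background, mirrored about the mode of 6.45, exceeds it. Probes past the filter (12116) were fitted with limma 3.58.1 in R 4.3.3 (lmFit, eBayes, constant prior), with Benjamini-Hochberg adjustment over all of them and a threshold of 0.05. Lists used the brightest probe of each of 7205 genes. An exact permutation test of 3 against 3 arrays has a smallest p of 0.1, so none was used. The model was checked on simulated data with differences larger than those of the member probes, so power at the size of the latter was not tested.

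The members, lists and rules were chosen with earlier results of these data known. All member probes were named, with up to 4 genes of smallest p from each list, the RFX and NF-Y genes, Ctcf, H2-Oa, Gtf2i, up to 4 neighbours and the 3 genes most like Cd74. Further genes named for their role (Ctss, Marchf1, Marchf8, Cd80, Cd86, Tap2, H2-K1, H2-Eb2, Btnl2 and the markers) lie outside that rule and were picked with their values known. Alternatives covered filter, prior, weights, background correction, centring, choice of probe, replicate block and each array left out.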

Additional observations from a re-analysis of the deposited data

How the results depend on the processing

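Under each alternative of filter, prior, weights, background correction, centring, probe choice, block and array left out, 0 member probes passed the adjusted threshold. The 6 lists were recomputed only with the stricter filter, normexp, both choices of probe and each array left out, and there 0 of their genes passed. The count of 0 probes became 14 with a prior that followed intensity, 14 with that prior made robust and 9 with normexp. At an unadjusted p under 0.05 in limma there were 789 probes, or 6.51% of all tested, and 3 of the 9 tested members. Of these 3, H2-Eb1 and H2-Ea passed the filter through the shTFII-I arrays alone, so nothing is read from the 3. Groups did not overlap in 4 of 9 tested members, beside 11.4% of all tested probes. That count was chosen after the data were seen, and 3 of the 4 passed the filter through shTFII-I arrays alone. With 1 array left out each count of passing probes, members and list genes ran from 0 to 0. With the replicate number as a block 0 probes passed. Same-numbered arrays deviated together with correlations of -0.03, 0.0029 and 0.09, and not every array was most like its own number, so the numbers were not taken as pairs. Of 144 recomputed values of tested members 9 changed sign, in 4 probes named below, and the cause was not tested. With array weights H2-DMa ILMN_2777769 was -0.034. With 1 array left out it ran from -0.10 to 0.12, H2-DMa ILMN_2866856 from -0.27 to 0.0060, H2-Ab1 ILMN_2913716 from -0.025 to 0.078 and Cd74 ILMN_3089584 from -0.12 to 0.58. Precision is limited by 3 arrays a group, and of the 17 probes 8 lie too near background to be tested.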
